A study of Mus musculus with 42 samples.

Results

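Asxl3, Nol4 and Ccdc178 are neighbouring genes on mouse chromosome 18 that lay inside a lamina-associated domain (LAD) at some sampled times in liver and outside any LAD at others. They are the 3 genes, of 21938 protein-coding genes examined, listed for the region of chromosome 18 from 21660001 to 23480000 (mm10). That region was selected on the LAD calls themselves: it held a LAD at circadian times CT6, CT12 and CT18 and none at CT24 and CT30. The presence of the LAD at these 5 time points is therefore how the genes were chosen, and it is described below without a test.

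LADs were mapped by chromatin immunoprecipitation of lamin B1 (LMNB1) and sequencing in liver from 14 wild-type C57Bl/6 mice, with 2 mice for each of 7 groups. Non-synchronized (NS) mice were killed at noon on the day before food was withdrawn. Mice of the other groups went 24 h without chow to set the liver clock, were given food again at CT0 (6 a.m., lights on), and belong to CT0, CT6, CT12, CT18, CT24 or CT30, where the number is the time in h. The labels call the mice female in one field and male in another, and the study's methods state male mice. Whole liver pieces were used, so a LAD held by few cells and a weak contact held by many cannot be told apart. LAD positions carry no expression and the RNA-seq of the series was not analysed here, so the tissue label was not checked against liver markers.

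The nuclear lamina is a meshwork of lamins under the inner nuclear membrane. Chromatin that touches it forms LADs, long domains that are mostly gene-poor, rich in A and T, and transcriptionally quiet. Genes with roles in neurons are frequent in such domains in cells that do not use them. Asxl3 encodes a member of the ASXL family, whose proteins bind the deubiquitinase BAP1 in the PR-DUB complex, which removes ubiquitin from histone H2A. Nol4 encodes a nucleolar protein best known from brain and testis. Ccdc178 encodes a coiled-coil protein of which little is known.

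The libraries held 86 to 341 LADs each, covering 12.3 to 24.3% of the genome, and the deposited positions carry no score or read count. Read depth is therefore unknown, no counting error can be attached to a LAD, and the precision comes only from the 2 mice per time point. The labels list a single input library per group, so the 2 mice of a group appear to share it. Their LAD calls may then not be fully independent. A difference between inputs cannot be told apart from a difference between time points. All positions follow mm10, and genes follow the GENCODE vM21 annotation of the same build.

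Ccdc178 (ENSMUSG00000024306.13) extends from 21810893 to 22171442 on the minus strand. Asxl3 (ENSMUSG00000045215.16) comes next, from 22344883 to 22530227 on the plus strand. Nol4 (ENSMUSG00000041923.15) extends from 22693181 to 23041653 on the minus strand. Together their bodies filled 49.1% of the 1.82 Mb region, with intergenic gaps of 173.4 kb between Ccdc178 and Asxl3 and 163.0 kb between Asxl3 and Nol4.

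All 3 genes were long. Ccdc178 measured 360.6 kb, Nol4 348.5 kb and Asxl3 185.3 kb, against a median of 17.4 kb over the 21938 genes, so that they were longer than 98.1%, 98.0% and 95.0% of them. They also had a low share of G and C bases over the gene body: 38.3% in Ccdc178, 38.4% in Nol4 and 39.0% in Asxl3, where the median gene had 45.2%. Exons made up 1.05% of Ccdc178, 1.63% of Nol4 and 8.38% of Asxl3, which has 15 exons merged over its transcripts. These features were not used to choose the genes, but long, G and C poor genes are usual in LADs, and no test was made on 3 genes.

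At NS neither mouse had a LAD in the region, and 0% of the body of each gene was covered. At CT0 the mice differed: replicate 1 had no LAD, and replicate 2 had one from 21916001 to 23096000 (1.18 Mb). That LAD held all of Asxl3 and Nol4 and 70.8% of Ccdc178. CT0 is thus the only time point at which one mouse had no LAD over any of the 3 genes and the other had one over all of them.

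**Figure D1:**
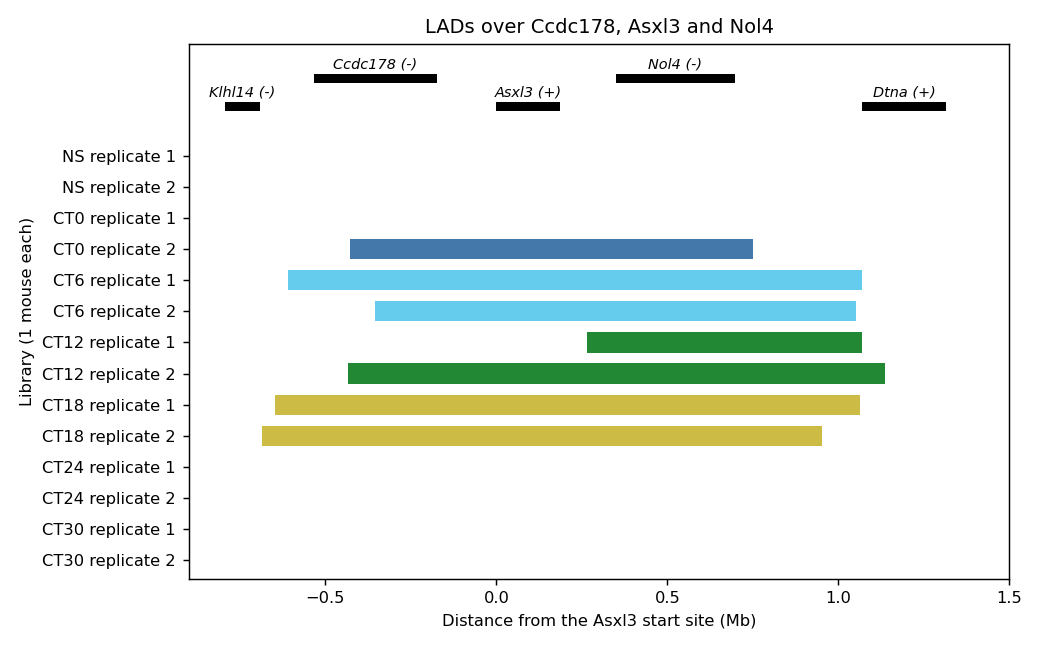
LADs over the 3 genes in each of the 14 libraries, 1 mouse per line, with distance from the Asxl3 start site in Mb on the horizontal axis. Bars are LADs as called in that mouse, coloured by time point, and black boxes are genes with their strand in parentheses. The 7 libraries with a LAD share the stretch over Nol4, and the LAD of CT12 replicate 1 begins past Asxl3.

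At CT6 both mice had a LAD in the region. The LAD of replicate 1 ran from 21735001 to 23415000 (1.68 Mb) and held the 3 genes whole. The LAD of replicate 2 ran from 21989001 to 23397000 (1.408 Mb), held Asxl3 and Nol4 whole, and covered 50.6% of Ccdc178. The mice thus shared the high border to within 18 kb and differed at the low border, which lay inside Ccdc178 in replicate 2 only.

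At CT12 the mice differed more. Replicate 1 had the shortest LAD of all, 0.805 Mb from 22610001 to 23415000, which covered 100% of Nol4 and 0% of Asxl3 and of Ccdc178. Replicate 2 had a LAD of 1.57 Mb from 21910001 to 23480000, which held Asxl3 and Nol4 whole and 72.5% of Ccdc178. The LAD of replicate 1 began in the intergenic gap between Asxl3 and Nol4, 265 kb above the Asxl3 start site.

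At CT18 both mice had a LAD over all 3 genes in full length. It ran from 21698001 to 23408000 (1.71 Mb) in replicate 1 and from 21660001 to 23298000 (1.638 Mb) in replicate 2. At CT24 and CT30 none of the 4 mice had a LAD in the region, and coverage of every gene body was 0%. CT30 falls at the same hour of day as CT6, noon, when the NS mice were also killed. At that hour the LAD was present in the CT6 mice and absent in the CT30 and NS mice. The parts of hour of day and of time since refeeding in the pattern were not tested.

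**Figure D2:**
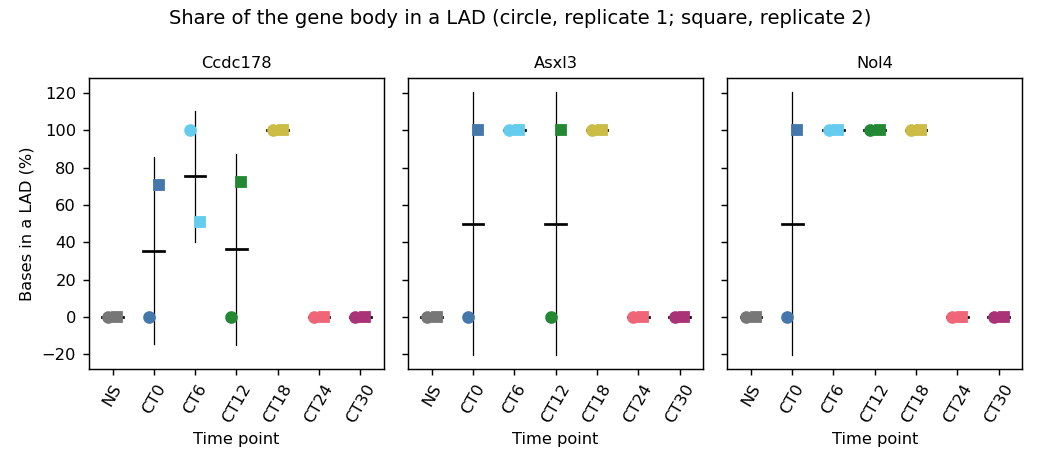
Share of each gene body in a LAD, in % of its bases, by time point, with circles for replicate 1, squares for replicate 2, a short line for the mean and a vertical line for ± 1 SD (n = 2). Nol4 is at 100% in all 6 libraries of CT6 to CT18 and Asxl3 in 5 of them, while Ccdc178 varies from 0% to 100%. SD lines of groups with 1 mouse at 0% and 1 at 100% run past the possible range.

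Nol4 was therefore the most steadily covered of the 3 genes, with 100% of its body in a LAD in each of the 6 libraries from CT6 to CT18 (SD 0, n = 6). Asxl3 was covered by 83.3% ± 40.8 on average over these libraries (SD, n = 6), at 0% in CT12 replicate 1 and 100% in the other 5. The difference between Nol4 and Asxl3 thus rests on CT12 replicate 1. With LADs of at least 1 Mb, both had a mean of 83.3%. Each SD here pools mice of CT6, CT12 and CT18. Ccdc178 was covered by 70.5% ± 40.0 (SD, n = 6), with a lowest value of 0%, a median of 86.3% and a highest value of 100%. The start site lay in a LAD in 7 of 14 libraries for Nol4 and in 6 of 14 each for Asxl3 and Ccdc178.

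For the region as a whole, the covered share was 92.3% and 77.4% at CT6, 44.2% and 86.3% at CT12, and 94.0% and 90% at CT18 (replicates 1 and 2). The group means were 84.8% ± 10.6 at CT6 and 65.2% ± 29.7 at CT12 (SD, n = 2 each). Over the 6 libraries the mean was 80.7% ± 18.8 (SD), with a lowest value of 44.2%, a median of 88.1% and a highest value of 94.0%. The values of these 6 libraries and the zeros of the 4 libraries of CT24 and CT30 did not overlap, as the choice of the region requires.

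The mice of a time point could also be compared by the base pairs covered in both over those covered in either. This index was 0.915 at CT18, 0.838 at CT6 and 0.513 at CT12 in the region, against 0.674, 0.673 and 0.771 over the genome at the same time points. The region was chosen for holding a LAD at these time points, which bears on its index, so the values are given side by side and not compared further. At CT0 the index was 0 in the region and 0.515 over the genome.

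The part shared by all 7 LADs extended from 22610001 to 23096000 (0.486 Mb). It held Nol4 whole and neither Asxl3 nor Ccdc178. Its limits were set by 1 library each, CT12 replicate 1 on the Asxl3 side and CT0 replicate 2 on the far side of Nol4.

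In the libraries of CT6 to CT18, the high borders of the LADs, beyond the 5′ end of Nol4, lay closer together than the low borders. Over the 6 libraries of CT6 to CT18 the low border had an SD of 355 kb and a range of 950 kb, and the high border an SD of 58.8 kb and a range of 182 kb. Without CT12 replicate 1 the low border had an SD of 143 kb and a range of 329 kb, and the high border an SD of 65.4 kb (n = 5). With CT0 replicate 2 added to all 6, the SD was 324 kb at the low border and 128 kb at the high one. With CT0 replicate 2 kept and CT12 replicate 1 left out, the high borders were not closer together. Low borders then ran from 21660001 to 21989001, and high borders from 23096000 to 23480000. The difference between the borders thus depends on single libraries. LAD starts fell on a grid whose step, 4 to 35 kb in these 7 libraries, limits how finely a border was placed.

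In terms of genes, 3 of the 7 low borders fell in an intron of Ccdc178 (CT0 replicate 2, CT6 replicate 2 and CT12 replicate 2) and the other 4 were intergenic. Since Ccdc178 is on the minus strand, these LADs covered its 5′ part and left its 3′ part outside. CT0 replicate 2 and CT6 replicate 2 had the border in the same intron, of 102 kb, with 21 of the 24 merged exons of Ccdc178 inside the LAD. In CT12 replicate 2 it lay in the next intron toward the 3′ end, of 69.9 kb, with 22 exons inside. Of exonic bases of Ccdc178, 74.3% were in a LAD in CT0 replicate 2 and CT6 replicate 2 and 78.3% in CT12 replicate 2.

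The start site of Ccdc178 lay inside the LAD by 182 to 511 kb in the 6 libraries that held it, and was 0.439 Mb outside the LAD of CT12 replicate 1. That of Asxl3 lay inside the LAD, as measured from the low border, by 356 to 685 kb. Nol4 had its start site toward the high border, at 54.3 kb from it in CT0 replicate 2 and 256 to 438 kb from it in the 6 libraries of CT6 to CT18. The Nol4 start site was hence nearest to an edge in the CT0 mouse.

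When outside a LAD, the genes were far from any. The Asxl3 start site was 3.76 and 2.62 Mb from the nearest LAD in the NS mice, 2.99 Mb in CT0 replicate 1, 2.58 and 2.74 Mb at CT24, and 4.35 and 2.70 Mb at CT30. Over the 8 libraries in which it was outside, this distance ran from 0.265 Mb (CT12 replicate 1) to 4.35 Mb, with a median of 2.72 Mb. The corresponding medians were 2.55 Mb for Ccdc178 (8 libraries) and 3.32 Mb for Nol4 (7 libraries). Apart from CT12 replicate 1, no library in which Asxl3 or Ccdc178 was outside had a shortened LAD left within the region.

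**Figure D3:**
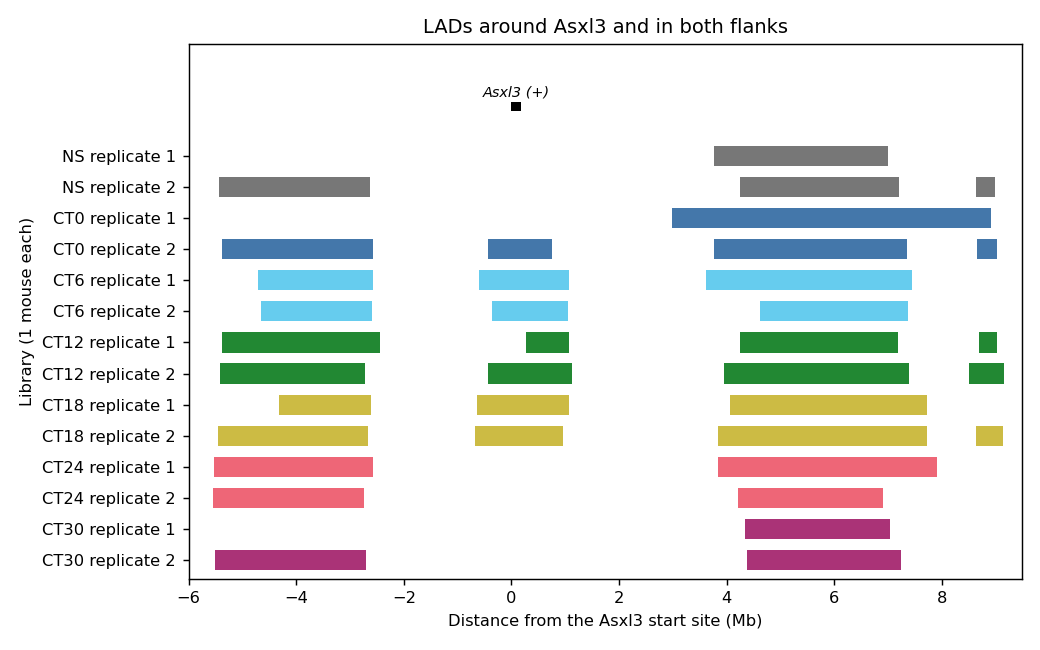
LADs around Asxl3 and in both flanking regions for the 14 libraries, with distance from the Asxl3 start site in Mb on the horizontal axis; bars are LADs coloured by time point. The downstream flank holds a LAD in all 14 libraries and the upstream flank in 11, while the region around Asxl3 holds one in 7.

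The next LAD regions on either side of the 3 genes were not used to choose them. They were taken as the nearest merged LAD regions of the 12 libraries from CT0 to CT30. The upstream flank (16794001 to 19905000, 3.111 Mb) ended 1.755 Mb below the region, and the downstream flank (25333001 to 31510000, 6.177 Mb) began 1.853 Mb above it. The upstream flank held a LAD in 10 of these 12 libraries, the downstream flank in 12 of 12, and the region of Asxl3 in 7.

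At the time points where the region of Asxl3 was empty, the flanks mostly were not. At CT24 the upstream flank was covered by 95.0% and 90.3% and the downstream flank by 65.7% and 43.7% (replicates 1 and 2). At CT30 the upstream flank was covered by 0% and 90.2% and the downstream flank by 43.7% and 46.2%. Both NS mice had a LAD in the downstream flank, with 52.3% and 53.6% covered, and only NS replicate 2 had one in the upstream flank, with 90.1%.

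The covered share of the flanks was not shown to differ between CTs by more than between mice. For the upstream flank, which ranged from 0 to 95.0%, the F ratio over the 6 CTs was 0.594 (exact permutation test over all 10395 divisions of 12 libraries into 6 pairs, p = 0.668, Benjamini-Hochberg adjusted p over 3 tests = 0.668). For the downstream flank, from 43.7 to 95.9%, it was 1.63 (exact permutation p = 0.297, adjusted p = 0.555). For chromosome 18 outside the region, from 13.4 to 21.7%, it was 1.34 (exact permutation p = 0.370, adjusted p = 0.555). With 2 mice per CT, these p-values do not show that the flanks stayed the same.

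**Figure D4:**
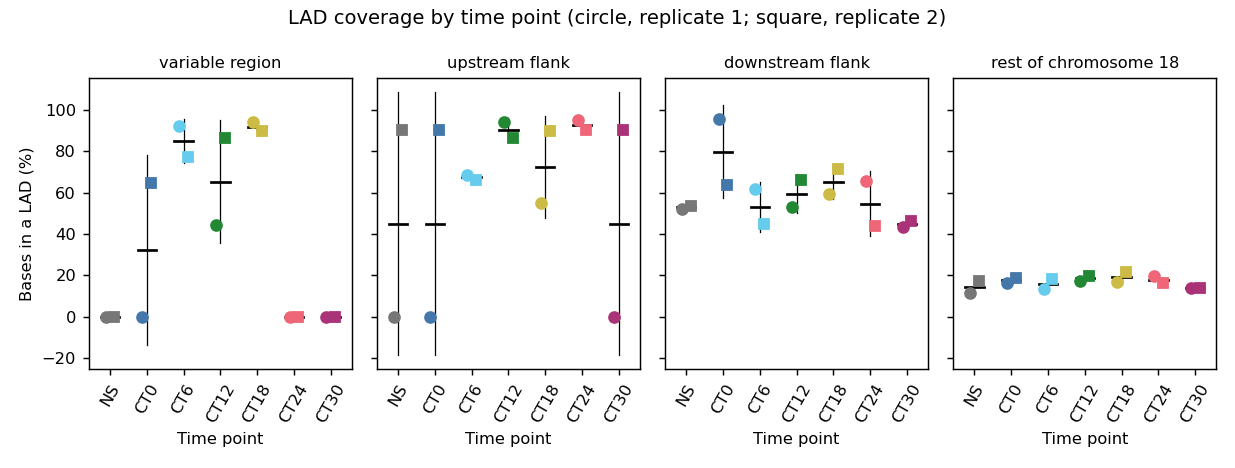
Share of bases in a LAD, in %, by time point for the region of Asxl3, its flanks and the rest of chromosome 18, with circles for replicate 1, squares for replicate 2, a short line for the mean and a vertical line for ± 1 SD (n = 2). The region is at 0% in both mice of NS, CT24 and CT30, where the downstream flank stays at 43.7% or more and the rest of chromosome 18 between 11.5 and 19.5%.

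NS and CT0 were not used to choose the genes either, so these groups could be compared. The covered share of the region was 0% in both NS mice, and 0% and 64.8% in the CT0 mice, a difference of 32.4 percentage points (exact two-sided permutation test, p = 1). The difference was 50 percentage points for Asxl3 and for Nol4 and 35.4 for Ccdc178, each with an exact permutation p of 1 and an adjusted p over the 4 tests of 1. With 1 value above 0 among 4, every division into 2 and 2 gives the same absolute difference, so p could not be below 1 here, and with any values 2 mice against 2 cannot go below 0.33. The region and the 3 genes rest on 1 LAD, so these are not 4 separate results. All of the difference came from CT0 replicate 2, and without that mouse it was 0 for the region and for each gene.

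Total LAD coverage differed between the libraries and partly moved with the LAD over these genes. Of the 7 libraries with the highest totals, 6 had the LAD. The exception was CT24 replicate 1, which had no LAD over Asxl3, Nol4 or Ccdc178 and the second highest total, 631.4 Mb. Conversely, CT6 replicate 1 held all 3 genes in a LAD with a total of 495.2 Mb, below the 540.4 Mb of CT24 replicate 2 and the 526.5 Mb of NS replicate 2, which had none there. The CT30 mice, at 405.4 and 392.4 Mb, and NS replicate 1, at 335.3 Mb, had the lowest totals. The part of total coverage in the pattern was not tested. The step of the start grid was 4, 5, 6, 10, 11, 19 and 35 kb in libraries with the LAD. In those without it the step was 4, 14, 18, 31, 46, 47 and 61 kb, so it was mostly coarser there. The part of the grid step in the pattern was not tested either.

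**Figure D5:**
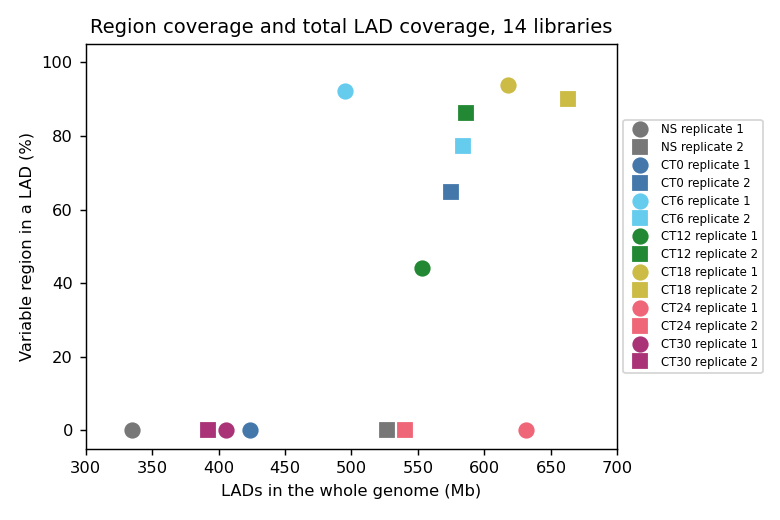
Share of the region of Asxl3 in a LAD, in %, against the total length of LADs in the genome, in Mb, for the 14 libraries, 1 point each, coloured by time point with circles for replicate 1 and squares for replicate 2. CT24 replicate 1 lies at 0% with a total of 631.4 Mb, and CT6 replicate 1 at 92.3% with a total of 495.2 Mb.

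Among all 21938 genes, 83.3% had a start site outside LADs in every library, 0.830% inside in every library, and 15.8% inside in some of them, as the 3 genes had. A start site in a LAD in both mice of CT6, CT12 and CT18 and in no mouse of CT24 and CT30 was found for 3 genes (0.0137%): Nol4, Negr1 on chromosome 3 and Gucy1a2 on chromosome 9. Asxl3 and Ccdc178 were outside this group because of CT12 replicate 1 alone. Without that mouse the group held 6 genes, with Asxl3, Ccdc178 and Nol4 among them.

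With at least 1 mouse of each of CT6, CT12 and CT18 in place of both, 98 genes (0.447%) on 14 chromosomes had the pattern, all 3 of Asxl3, Nol4 and Ccdc178 included. The opposite pattern, in a LAD in at least 1 mouse of CT24 and of CT30 and in none from CT6 to CT18, was found for 9 genes (0.041%) and for none of the 3. From CT18 to CT24, 99 genes (0.451%) went from inside in both mice to outside in both, the 3 genes among them. In the other direction, 48 genes (0.219%) went from outside in both mice to inside in both, and none of the 3 did. These counts place the genes among all others and, since the genes were chosen on this contrast, support nothing further.

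Of the 352 merged LAD regions, 2 (0.568%) held a LAD in both mice of CT6, CT12 and CT18 and in no mouse of CT24 and CT30. The other one, on chromosome 3 from 153972001 to 157638000, was 3.666 Mb long. The region of Asxl3, Nol4 and Ccdc178 was longer than 57.7% of the 352, whose median length was 1.401 Mb. Its share of G and C bases, 38.9%, was at the middle of the regions, with 50% of them lower.

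The region held 4 coding start sites, of Ccdc178, Asxl3, Nol4 and Dtna, or 2.20 per Mb. This compares with 0.321 per Mb in the upstream flank and 0.648 per Mb in the downstream flank. The whole genome held 21938 coding genes in 2725.5 Mb, so the region too was poorer in start sites than the genome. The Dtna start site counts only because the LAD of CT12 replicate 2 reached past it. Besides the coding genes, the annotation placed 2 noncoding genes there, the small nucleolar RNA Gm22495 and the processed pseudogene AC162373.1.

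The nearest coding genes on either side were Klhl14, just outside the region, and Dtna, whose start site lies within its high end. Klhl14, which encodes a BTB-kelch protein, was in no LAD in any library as called. Its start site lay 5283 bp below the LAD of CT18 replicate 2, closer than the step of 6 kb in that library. Dtna, which encodes alpha-dystrobrevin of the dystrophin complex, had its start site in a LAD in CT12 replicate 2 only, where 26.5% of its body was covered. In CT6 replicate 1 and CT12 replicate 1 the LAD ended 135 bp short of the Dtna start site, closer than the steps of 35 and 5 kb on which their LADs lay. In the other libraries with the LAD, apart from CT12 replicate 2, it ended 7135 to 319135 bp short of it. Of the 5 nearest coding genes on each side, 9 of 10 were never in a LAD and Dtna was in 1 of 14 libraries.

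The partners and relatives of Asxl3 and Nol4 gave no like pattern. Asxl1 and Asxl2, the other ASXL genes, Bap1, the deubiquitinase gene, and Foxk1, Foxk2, Hcfc1, Ogt, Kdm1b, Mbd5 and Mbd6, whose products join BAP1 complexes, were in no LAD in any of the 14 libraries. Nol4l, the relative of Nol4, was in none either, so that 11 of 11 listed genes were never in a LAD, as were 83.3% of all genes. Mbd5 came closest, with its start site 0.633 Mb from a LAD, and Asxl1 and Asxl2 came to 1.86 and 2.00 Mb.

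By the number of the 14 libraries in which the start-site call differed from that of Asxl3, Ccdc178 was the most alike, with 0 differing libraries. Nol4, Pate4 on chromosome 9 and Celf2 on chromosome 2 each differed in 1 library. Nol4 differed in CT12 replicate 1, Pate4 in CT6 replicate 1, and Celf2 in CT0 replicate 2. Celf2, which encodes an RNA-binding protein, was covered over at most 23.7% of its body. A further 15 genes differed in 2 libraries, 72 in 3 and 326 in 4. Among the 15 were Grb10, an adaptor of insulin receptor signalling, and Ddc, the aromatic amino acid decarboxylase, both on chromosome 11 and in a LAD in 8 libraries. Fignl1 lies next to them and had the same calls. Zfp369 on chromosome 13, Gm21961 on chromosome 15, and the overlapping genes Gm49339, Lilr4b and Lilrb4a on chromosome 10 had the start site in a LAD in 4 libraries each. The body of Zfp369 was touched by a LAD in 6 libraries.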

How the data were processed

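LMNB1 ChIP-seq was measured in liver from 14 mice, 2 each at NS, CT0, CT6, CT12, CT18, CT24 and CT30. The authors mapped reads to mm10 with Bowtie (Bowtie2 2.25.0 in the submitters' notes), removed duplicates with Picard, brought each ChIP and its input to equal depth per chromosome, and called LADs per mouse with EDD, with settings averaged over 10 runs. The deposited values are start and end positions in base pairs, with no score or read count, so depth is unknown. Inputs and RNA-seq were not analysed here.

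LADs were used as deposited. Genes were the 21938 protein-coding genes of GENCODE vM21 on chromosomes 1 to 19, X and Y, and the start site was the 5′ end of the gene. G and C content came from GRCm38.p6. Groups and replicate numbers follow the labels, which do not say that a number marks a shared litter or day, and no batch is given. File names use another numbering, 1 to 3, in which NS replicate 2, CT0 replicate 2 and CT12 replicate 1 have number 3. These libraries also had the finest start grids, with steps of 4, 4 and 5 kb. The replicate block and pairing check used the labels' numbers, so the numbering of the file names was not tested. Coverage was compared with exact permutation tests, of 2 mice against 2 and of the F ratio over 6 CTs, in Python 3.11.15 with NumPy 2.4.6, SciPy 1.17.1 and pandas 2.3.3, tested on simulated data. Beside the 3 genes, those named were the 5 nearest coding genes on each side, a list of PR-DUB genes and Nol4l, and up to 10 genes most alike to Asxl3 in start-site calls, with ties ordered by body coverage. Negr1 and Gucy1a2 fall outside this rule and were named after their values were seen. The genes and lists were chosen with earlier results of these data known. Alternatives were other definitions of a gene in a LAD, LADs of at least 1 Mb, gaps of at most 200 kb filled, leaving out each mouse, and a replicate block.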

Additional observations from a re-analysis of the deposited data

How the results depend on the processing

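Of 107 alternative values, 100 stayed close to those given above (same direction and side of the threshold of 0.05 for tests, within the spread of mice for other values, within 1.5 times for counts), 7 moved further, and 0 changed direction. The CT0 minus NS differences with 1 mouse left out carry no test and were counted as close because they moved by less than 1 SD of the CT0 mice, although without CT0 replicate 2 they were 0. The tested CT0 minus NS alternatives could not cross the threshold, because only CT0 replicate 2 had a value above 0. Their count as close therefore shows nothing. The count of genes in a LAD in both mice of CT6, CT12 and CT18 and in none of CT24 and CT30 was 3. It was 1, Nol4, when at least 0.5 of the gene body had to be covered, and 98 with at least 1 mouse of each of CT6, CT12 and CT18. Leaving out a mouse gave 3 to 9 genes: 6 without CT12 replicate 1, 7 without CT24 replicate 1, 9 without CT30 replicate 1 and 8 without CT30 replicate 2. Nol4 was among them in each of these cases. With LADs of at least 1 Mb the LAD of CT12 replicate 1 drops out, mean coverage of Nol4 over CT6 to CT18 fell from 100% to 83.3%, and 2 genes without Nol4 had the pattern. Leaving out 1 mouse of NS or CT0 gave a CT0 minus NS difference of 0 to 64.8 percentage points for the region, 0 to 100 for Asxl3 and Nol4, and 0 to 70.8 for Ccdc178. Leaving out 1 CT mouse gave F ratios of 0.412 to 1.68 for the upstream flank, 0.953 to 3.52 for the downstream flank and 0.778 to 2.12 for the rest of chromosome 18, with a smallest permutation p of 0.0740. Deviations of mice with the same replicate number, in the covered share across merged LAD regions, had r from -0.184 to 0.526 over 21 pairs of time points (median 0.0162), with 5 above 0.1. Since not every r was above 0.1, the numbers were not taken to pair the mice. This rule cannot exclude a batch shared by mice of some time points only. With a replicate block the CT0 minus NS differences kept their values, with 32.4 percentage points for the region (exact permutation p = 1). The F ratios with a replicate block were 0.798 for the upstream flank, 1.60 for the downstream flank and 1.62 for the rest of chromosome 18 (permutation p = 0.636, 0.371 and 0.326). Scores and read depth were not used here, so the effect of depth on the LAD calls over these genes was not tested.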
